A study of Paxillus involutus with 18 samples.

Results

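GH9 endoglucanase paxillus_6851 and GH61 paxillus_6210 are 2 of the 12214 isotigs, assembled transcripts of *Pa. involutus*, on the array. They are the isotigs that the study's expression figure places under plant cell wall degradation, and that figure lists isotigs for a rise over 2-fold on at least 1 extract of organic matter against MMN. The members were thus chosen by their measured changes on the 3 extracts against MMN, which are given below as a description, with no test. The labels name wild-type mycelium of strain ATCC 200175, an ectomycorrhizal fungus kept in axenic culture, so that no plant host was present in any group. On glass beads the mycelium spent 9 days in MMN, a defined mineral medium with glucose and ammonium, and 24 h without N, and was then given for 7 days a hot water extract of spruce forest litter (FH), a hot (MH) or cold (MC) water extract of maize compost, carboxy methyl cellulose (CMC), a soluble form of cellulose, or MMN again. Particles were removed from the extracts by a 0.2 µm filter and small molecules by an ultrafilter with a limit of 10 kDa. The extracts and CMC were supplied with glucose, which MMN holds too. The arrays lay on 2 slides, with FH, MH and MMN on slide 1 and MC, CMC and MMN again on slide 2, each as 3 arrays. The labels call the arrays of a medium biological replicates without saying at which step the cultures were separated, so the spread behind a p-value may be partly technical.

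Cellulose is a chain of glucose units, packed into crystals in plant cell walls. Endoglucanases, to which the GH9 family belongs, cut the chain at inner positions by hydrolysis. GH61 proteins, now known as lytic polysaccharide monooxygenases, hold a copper ion and break the chain by oxidation, for which they need an electron donor such as a small reducing compound or cellobiose dehydrogenase. In white-rot fungi, which decay wood, both kinds of enzyme work beside enzymes that free cellobiose from chain ends. The study also found both transcripts in a screen of cDNA clones for secreted proteins, and described the GH9 protein as lacking a cellulose-binding module.

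Each isotig was measured by 10 probes, and the deposited value of an array is their summary by robust multi-array average (RMA) on the log2 scale, so a difference of 1 is 2-fold. If the values were natural logarithms, 63.5% to 66.3% of the isotigs of each array would exceed the range of a 16-bit image. RMA gives log2 values, and log2 was used. The ratios drawn in the study's expression figure nevertheless fit the deposited differences read as natural logarithms, and the reason is not known here. All folds below are for log2. Read as natural logarithms, the changes of GH9 would be 2.09-fold on FH, 2.55-fold on MH, 3.56-fold on MC and 2.66-fold on CMC, all past 2-fold. Those of GH61 would be 1.82-fold on FH, 3.37-fold on MH, 1.23-fold on MC and 2.23-fold on CMC. The lowest value of GH9 on any array lay 5.97 above the highest mean of the random control probes, and that of GH61 lay 7.44 above it, on the log2 scale. GH9 was still among the dimmer isotigs, as 19.2% of all isotigs had a lower mean level, against 66.7% for GH61. The spread between replicates, pooled over the 6 groups of arrays, was 0.093 (SD, log2) for GH9 and 0.089 for GH61, close to the median of 0.083 over all isotigs. The values of MC replicate 3, which is MC by its title, source and medium but MH by its free-text description, were 11.47 for GH61, against 12.57 to 12.74 on the MH arrays and 11.53 and 11.62 on the other MC arrays. For GH9 that array read 11.19, against 10.96 to 11.02 on the MH arrays and 11.06 and 11.16 on the other MC arrays. For both isotigs it thus lay nearer to the MC arrays, and it was kept as MC. The levels of both isotigs on all 18 arrays are shown in the plot of levels by medium.

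**Figure D1:**
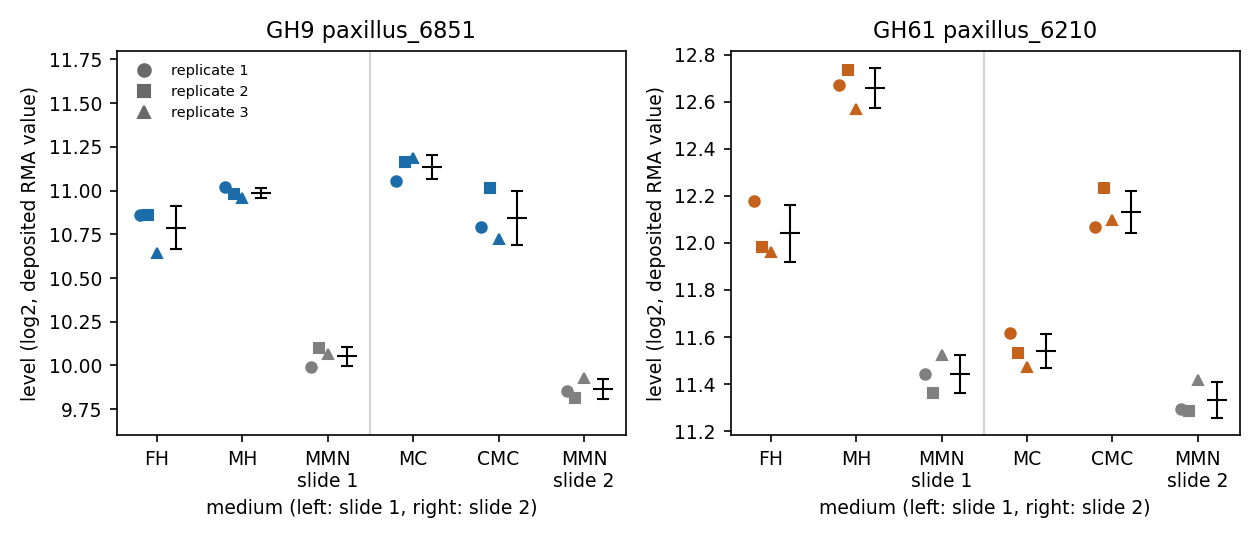
Levels of GH9 paxillus_6851 (left) and GH61 paxillus_6210 (right) as deposited log2 values (y axis, not starting at 0) in each medium (x axis), 1 symbol for each array, with the mean and SD of 3 arrays beside them. GH9 had its highest mean on MC, 11.14, and GH61 its highest mean on MH, 12.66, and for both isotigs the MMN arrays lay below all other arrays of their slide.

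GH9 was highest on the cold water extract of maize compost. Its level was 11.06, 11.16 and 11.19 on the MC arrays, against 9.85, 9.81 and 9.93 on the MMN arrays of slide 2. The MC arrays all lay above the MMN arrays, as they did for 26.3% of all isotigs. The lowest MC array lay 1.13 above the highest MMN array on the log2 scale. The mean change was 1.27, or 2.41-fold. On MH the level of GH9 was 11.02, 10.98 and 10.96, against 9.99, 10.10 and 10.06 on the MMN arrays of slide 1, a mean change of 0.93, or 1.91-fold. On FH it was 10.86, 10.86 and 10.65 against the same MMN arrays, a mean change of 0.74, or 1.67-fold. The FH arrays were wider apart than the MH arrays, with an SD of 0.12 on FH and of 0.031 on MH (log2, n = 3 each), and the third FH array was the lowest. Read as log2, the change of GH9 passed 2-fold on MC and not on either hot water extract. On MH this turned with the processing, with a change of 1.01 when quantile normalization was repeated and of 1.03 against MMN averaged over both slides.

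GH61, which acts on cellulose oxidatively, was highest on the hot water extract of the same compost. Its level was 12.67, 12.74 and 12.57 on the MH arrays, against 11.44, 11.36 and 11.52 on the MMN arrays of slide 1, a mean change of 1.21, or 2.32-fold. On FH it was 12.18, 11.98 and 11.96 against the same MMN arrays, a mean change of 0.60, or 1.51-fold. All FH arrays lay between the MMN and MH arrays, without overlap on either side. The FH arrays lay above the MMN arrays for 23.0% of all isotigs. The share without overlap between FH and MH was not counted, so this describes GH61 only. On MC the level of GH61 was 11.62, 11.53 and 11.47, against 11.29, 11.28 and 11.42 on the MMN arrays of slide 2, a mean change of 0.21, or 1.16-fold. The lowest MC array lay 0.052 above the highest MMN array, less than the SD of 0.074 between the MC arrays.

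Read against all isotigs, these changes stood in the upper part of the distribution, apart from that of GH61 on MC. A high place on at least 1 extract follows from the choice of the members and is not a result. A larger change than that of GH9 was measured for 1.41% of the isotigs on MC, 2.55% on FH and 5.35% on MH. A larger change than that of GH61 was measured for 2.51% on MH and 4.24% on FH, but for 22.4% on MC. A call is an adjusted p under 0.01 from limma together with a change over 2-fold. The share of all isotigs with such a call, upwards, was 0.966% for FH, 4.49% for MH and 2.81% for MC. These shares are the background for calls that the choice of the members already used, and nothing is read from them for GH9 and GH61. All 3 arrays of a medium lay above all 3 MMN arrays of the slide for both members on each extract, which was also true of 23.0% of all isotigs for FH, of 32.9% for MH and of 26.3% for MC. The plot of changes sets both isotigs against the range of all isotigs.

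**Figure D2:**
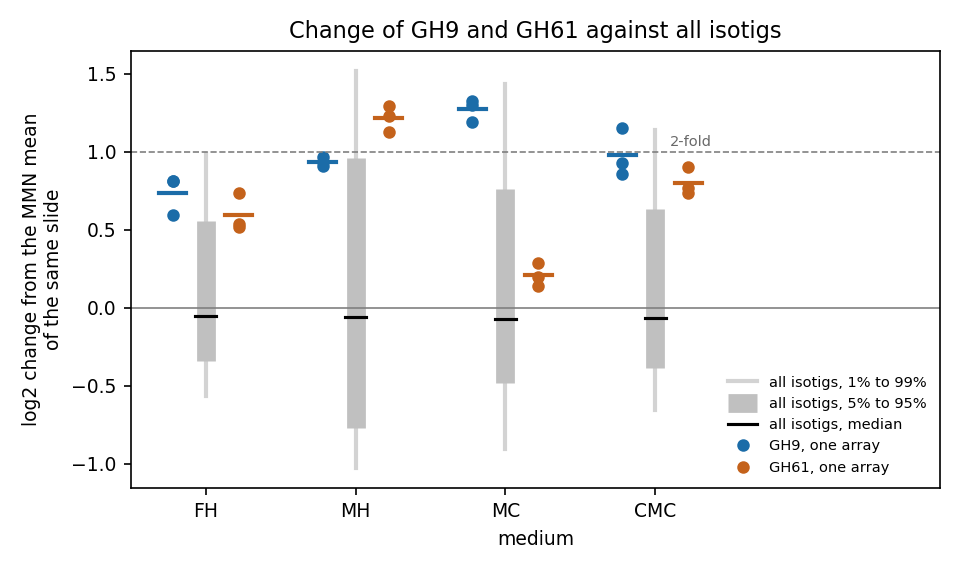
Change of GH9 and GH61 on each array from the MMN mean of its slide (y axis, log2) by medium (x axis), with the mean of 3 arrays as a bar, beside the median and the 5% to 95% and 1% to 99% ranges of all 12214 isotigs. On MC GH9 lay at 1.27 while GH61 lay at 0.21, within the 5% to 95% range of -0.48 to 0.76.

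CMC, the medium with a cellulose derivative in place of an extract, was not among the contrasts that chose the isotigs, and on it both rose. The level of GH9 was 10.79, 11.02 and 10.72 on the CMC arrays, against 9.85, 9.81 and 9.93 on the MMN arrays of slide 2. The log2 change was 0.98 (standard error 0.07, adjusted p = 7.2e-09 from limma), or 1.97-fold with a 95% confidence interval of 1.77 to 2.19. The level of GH61 was 12.07, 12.23 and 12.10 on the CMC arrays, against 11.29, 11.28 and 11.42 on the MMN arrays. Its log2 change was 0.80 (adjusted p = 6.3e-08 from limma, standard error 0.07), or 1.74-fold with a 95% confidence interval of 1.57 to 1.93. For both isotigs all 3 CMC arrays lay above all 3 MMN arrays, as they did for 25.8% of all isotigs. In an exact two-sided permutation test of 3 against 3 arrays both had p = 0.1, the smallest value that this number of arrays allows.

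Both isotigs passed the adjusted p on CMC, and read as log2 neither changed by over 2-fold. The study lists a GH9 and a GH61 as induced on cellulose, in a comparison that counted genes raised at least 2-fold. Read as natural logarithms, the changes on CMC would be 2.66-fold for GH9 and 2.23-fold for GH61. Of all isotigs, 19.0% were higher on CMC at an adjusted p under 0.01, and 1.66% when a change over 2-fold was also asked for. GH9 stood close to that threshold, at rank 215 of 12214 from the largest rise, and GH61 at rank 369. The interval of GH9 holds 2-fold, while that of GH61 lies below it. The call of GH9 past 2-fold turned on single arrays: its log2 change was 1.04 without CMC replicate 3, 1.01 without either CMC replicate 1 or MMN replicate 3 of slide 2, and 0.89 without CMC replicate 2. The MMN arrays of slide 2 also served as the control of MC, from which GH9 was chosen, so the test on CMC is not fully separate from that choice.

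**Figure D3:**
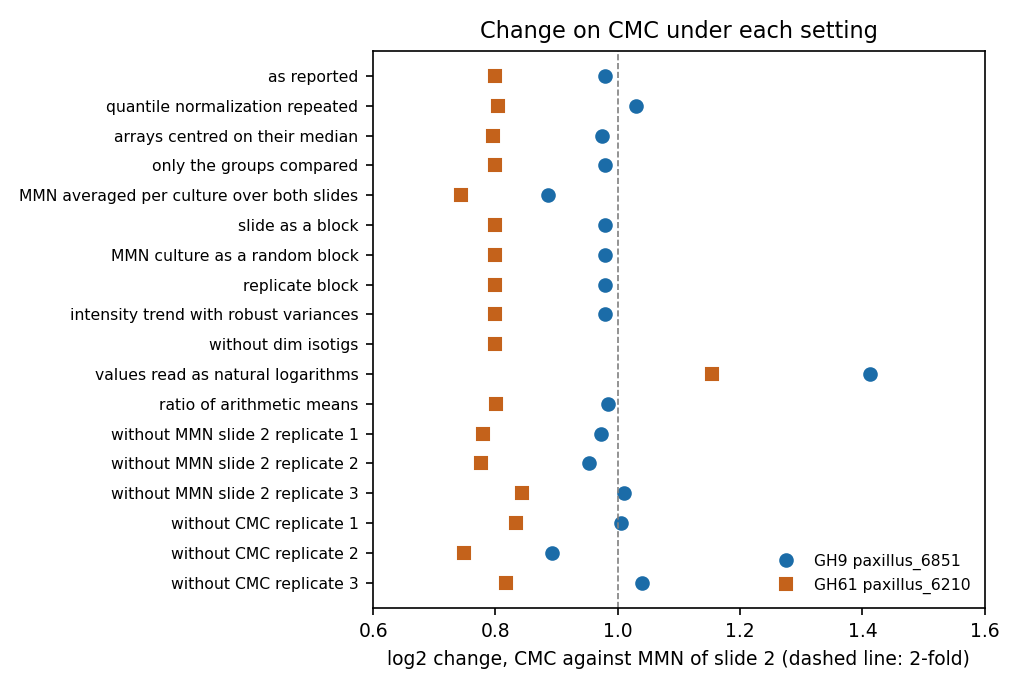
Log2 change on CMC from the MMN arrays of slide 2 (x axis) for GH9 (circles) and GH61 (squares) under each setting of the analysis (rows), with a dashed line at 2-fold. GH9 lay between 0.89 and 1.04 and GH61 between 0.74 and 0.84 under the settings that read the values as log2, and both lay past the line where the values were read as natural logarithms.

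The MMN arrays of both slides gave a measure of how far the slides differ for these isotigs. GH9 averaged 9.87 ± 0.058 on slide 2 and 10.05 ± 0.056 on slide 1 (SD, n = 3 each), a log2 difference of -0.19 (adjusted p = 0.079 from limma). GH61 averaged 11.33 ± 0.076 on slide 2 and 11.44 ± 0.080 on slide 1 (SD, n = 3 each), a log2 difference of -0.11 (adjusted p = 0.28 from limma). Of all isotigs, 3.82% were higher and 4.31% lower on slide 2 at an adjusted p under 0.01. With the MMN arrays of the same number taken as 1 culture, slide 2 was lower in all 3 cultures, by -0.14, -0.29 and -0.13 for GH9 and by -0.15, -0.08 and -0.10 for GH61 (log2, slide 2 minus slide 1). With the culture as a random block in limma, a fit added after the data were seen, the adjusted p was 0.0074 for GH9, which is past the threshold, and 0.064 for GH61. In size, this difference of GH9 between slides was above the 0.04 between its changes on CMC and MH, which lay on different slides. It was below the 0.34 between its changes on MC and MH. Comparisons between MC or CMC on slide 2 and FH or MH on slide 1 therefore rest on the change from the MMN arrays of each slide.

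The order of the media differed between both isotigs. For GH9 the changes ran from 1.27 on MC to 0.98 on CMC, 0.93 on MH and 0.74 on FH. The changes of single arrays overlapped between CMC and MH, at 0.86 to 1.15 and 0.91 to 0.97, and did not overlap between MC and CMC, where the lowest MC array stood at 1.19. They did not overlap between MH and FH either, where the highest FH array stood at 0.81. For GH61 they ran from 1.21 on MH to 0.80 on CMC, 0.60 on FH and 0.21 on MC. Here, of the neighbours in this order, only CMC and FH overlapped, with the lowest CMC array at 0.73 and the highest FH array at 0.74. The share of all isotigs without overlap was not counted between media other than MMN, so these overlaps describe the members only. The order of CMC and MH turned round for GH9 without CMC replicate 2, at 0.89 on CMC and 0.93 on MH. It also turned round against MMN averaged over both slides, at 0.89 on CMC and 1.03 on MH, but that control leaves the difference between slides in. As reported, the order of GH9 was shared by 2.69% of all isotigs and that of GH61 by 4.33%.

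Between the hot and the cold water extract of the same compost both isotigs differed in opposite directions. The change of GH61 on MC was 1.01 lower on the log2 scale than on MH, which is 0.498-fold, and 0.295% of all isotigs had a lower difference. The change of GH9 on MC was 0.34 higher than on MH, or 1.26-fold, and 13.5% of all isotigs had a higher difference. Against MMN averaged over both slides these differences were 0.15 for GH9 and -1.12 for GH61, and the value for GH9 was under 0.19, the size of its difference between the MMN arrays of the slides. MC and CMC shared a slide, so that their arrays can be set against each other directly. There GH9 was 1.22-fold higher on MC than on CMC, and 7.26% of all isotigs had a higher difference. GH61 was 0.664-fold on MC against CMC, and 1.52% of all isotigs had a lower difference. FH and MH shared slide 1, where GH61 was 1.53-fold and GH9 1.15-fold higher on MH than on FH. Of the 549 isotigs called higher on MH, 15 had a change on MC as small as or smaller than that of GH61. Of the 343 called higher on MC, 71 had a change on MH as small as or smaller than that of GH9. These differences rest on arrays from which the members were chosen, and were not tested.

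The difference of GH9 and GH61 on each array removes any scale factor that both share. Set to 0 at the MMN mean of the slide, it was 0.90, 1.10 and 1.18 on the MC arrays, where the fold change of GH9 was 2.09-fold that of GH61. It was -0.26, -0.36 and -0.22 on the MH arrays, where GH61 had the larger change. On FH it was 0.073, 0.27 and 0.076, against -0.061, 0.13 and -0.068 on the MMN arrays of slide 1, so these groups overlapped. On CMC it was 0.19, 0.25 and 0.093, against 0.027, -0.0028 and -0.024 on the MMN arrays of slide 2. The mean difference on CMC, 0.18 on the log2 scale, was tested by an exact two-sided permutation of 3 against 3 arrays and had p = 0.1, the smallest it allows. The levels of both isotigs were not set against each other, because the signal of a probe depends on its sequence.

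**Figure D4:**
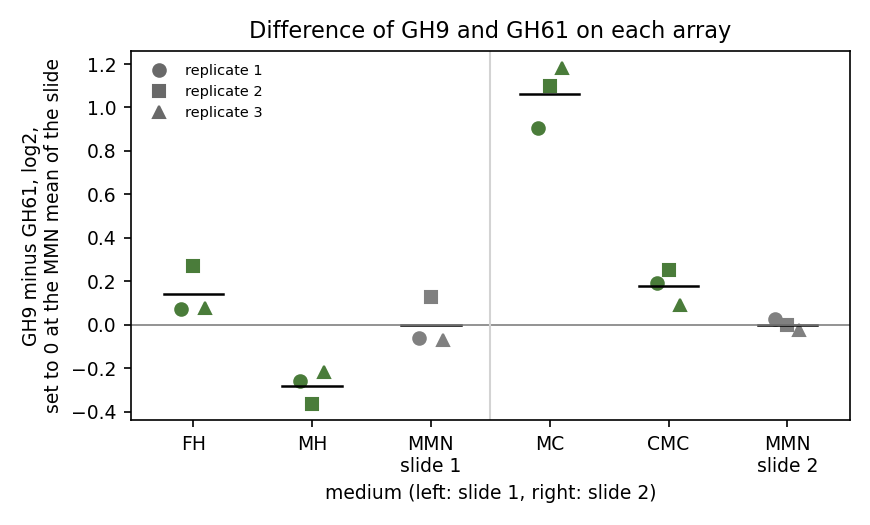
Log2 value of GH9 minus that of GH61 on each array, set to 0 at the MMN mean of the slide (y axis), by medium (x axis), with the mean as a bar. The MC arrays lay at 0.90 to 1.18, the MH arrays at -0.36 to -0.22, and the FH and CMC arrays at 0.073 to 0.27.

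The isotigs whose changes were most like those of each member were found by the root mean square difference of the log2 changes over the 4 media, a measure in which all isotigs share the same MMN arrays. For GH9 they were paxillus_7200, paxillus_8094, paxillus_7027, paxillus_4730 and paxillus_1010, at 0.086 to 0.11 on the log2 scale. For GH61 they were paxillus_350 and paxillus_8446, at 0.086 and 0.087, and then paxillus_4998, paxillus_4556 and paxillus_7534, at 0.14 to 0.15. The sources used here annotate none of these 10 isotigs. Within 0.1 there were 3 isotigs for GH9 and 2 for GH61. GH9 and GH61 lay 0.56 apart. Ranked by closeness among the other isotigs, GH61 was at rank 1036 from GH9, and GH9 at rank 2065 from GH61.

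Among the 41 isotigs of the study's expression figure that were analysed here, the closest to GH9 were ferric reductase paxillus_2317, at 0.18, and the glyoxal oxidases paxillus_3882 and paxillus_3881, at 0.18 and 0.22. Among all isotigs their likeness to GH9 had ranks 44, 45 and 91. Glyoxal oxidases make hydrogen peroxide, and ferric reductases turn ferric into ferrous iron. The closest to GH61 were cytochrome P450 monooxygenase paxillus_460, at 0.21, quinate transporter paxillus_8507, at 0.25, and laccase paxillus_4041, at 0.26. Among all isotigs their likeness to GH61 had ranks 27, 75 and 99. Cytochrome P450 monooxygenases add oxygen to small molecules, and laccases oxidise phenols. These 3 isotigs were chosen for changes close to those of GH61, so a likeness on single media follows from that choice. On MC their changes were 0.40 for paxillus_460, 0.15 for paxillus_8507 and 0.29 for paxillus_4041. On CMC their changes were 0.67, 0.63 and 0.75, near the 0.80 of GH61. They differed from GH61 on MH, where the largest of them was 0.96, against 1.21 for GH61. Laccase paxillus_4041 differed further on FH, where its change was 1.04, against 0.60 for GH61.

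**Figure D5:**
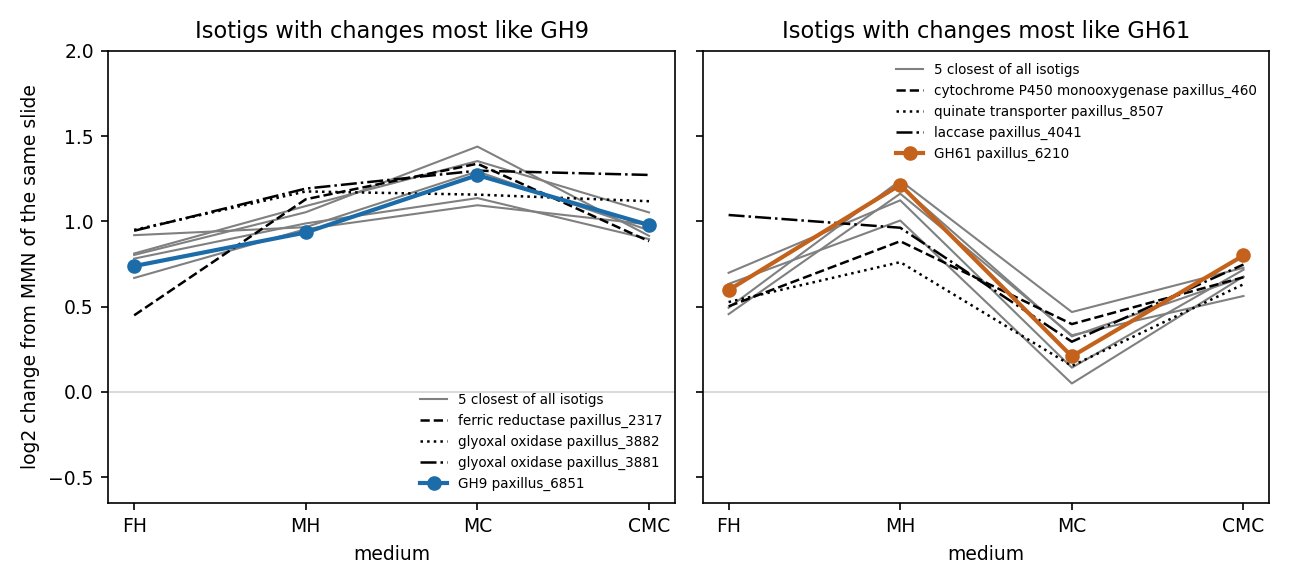
Log2 change from MMN of the same slide (y axis) by medium (x axis) for GH9 (left) and GH61 (right), with the 5 isotigs of the whole table whose changes were closest (grey) and the 3 closest among the annotated isotigs of the study (black). The grey profiles of the GH9 panel lay at 1.09 to 1.44 on MC, and those of the GH61 panel at 0.050 to 0.47.

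Other transcripts that the study annotated were set beside both members on CMC, by lists that the study drew from these arrays and that are not independent of the rise on the extracts. The 5 isotigs also found in the screen for secreted proteins were GH9, GH61, laccases paxillus_8036 and paxillus_3450, and cytochrome P450 monooxygenase paxillus_4020. All 5 were higher on CMC at an adjusted p under 0.01 from limma, as were 19.0% of all isotigs, and none by over 2-fold. Their median log2 change was 0.78, against -0.07 over all isotigs. GH9 had the largest change of the 5 on CMC, with GH61 next to it, and paxillus_4020 the smallest, at 0.30 (adjusted p = 0.0062). On MC laccase paxillus_8036 had a change of 2.22, above the 1.27 of GH9, while the 0.21 of GH61 was the smallest of the 5.

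Both glyoxal oxidases, whose hydrogen peroxide can serve the reaction of ferrous iron that forms hydroxyl radicals, were called higher on CMC. The log2 change was 1.27 for paxillus_3881 and 1.12 for paxillus_3882, above those of GH9 and GH61, and both isotigs belong to 1 isogroup, the study's unit for a gene. Of the 10 isotigs measured for iron reduction and homeostasis, 9 were higher on CMC at an adjusted p under 0.01, where 19.0% of all isotigs were. Of these, 3 rose by over 2-fold, where 1.66% of all isotigs did. These are counts of isotigs and not of genes, since isotigs can share a gene. The study reports that isotigs of the same gene were regulated almost alike. None of the 10 was lower, where 21.8% of all isotigs were, and the median log2 change was 0.77. The list holds isotigs chosen for a rise on an extract, and MC and CMC share their MMN arrays. Many rises and few falls on CMC thus follow in part from that choice, and nothing is read from these counts. The largest change was that of phenylalanine ammonia lyase paxillus_5485, which takes ammonia from phenylalanine, at 1.37 (adjusted p = 5.4e-09 from limma). The smallest was that of siderophore isotig paxillus_6835, at 0.13 (adjusted p = 0.11). The isotig paxillus_2900, an iron permease that carries iron into the cell, resembled GH61 in having its smallest change on MC, -0.01, beside 0.72 on CMC. The quinate transporters of the list also had their smallest change on MC. On MH paxillus_2900 differed from GH61, at 0.50 against 1.21. Over the 41 isotigs GH9 was at rank 16 from the largest change on MC and GH61 at rank 38, and on MH GH9 was at rank 24 and GH61 at rank 11.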

How the data were processed

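The values that the authors deposited are log2 values, 1 for each isotig on an array, made by RMA, which corrects the background, normalizes between arrays and summarises the probes of an isotig. Not given in the sources used here were the version of RMA, the array software and the study's own test. If the values were natural logarithms, 63.5% to 66.3% of the isotigs of each array would exceed the range of a 16-bit image, so log2 was used. The ratios drawn in the study's figure fit natural logarithms, however, and the reason for this is not known here.

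All 18 arrays entered 1 linear model in limma 3.58.1 (lmFit, eBayes; R 4.3.3) with a mean for each of the 6 groups, without the row of random control probes. P-values were adjusted by Benjamini-Hochberg over the 12214 isotigs of a comparison, and the thresholds (0.01 and 2-fold) follow the study's figure legend. With 12 residual and 5.35 prior degrees of freedom, the number of arrays limits the precision. On simulated data for CMC against MMN over 12214 isotigs, 100% of those changed by 1.5 or by 2 (log2) were called; changes near 2-fold were not simulated. MMN arrays of the same number were taken to share a culture across slides, which the labels do not state outright; their deviations correlated at 0.26, 0.45 and 0.49.

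Members and lists were chosen with earlier results of these data known. Other isotigs were named as the 5 closest in their changes, the 3 closest within the study's figure, the members of its secretion screen and its glyoxal oxidases, and the extremes of its iron list, with paxillus_2900 added after its values were seen. No file pairs isotigs with sequences or loci, and 3 of the 44 isotigs of the figure are not analysed here. Alternatives were other normalizations, controls, blocks, variance models and filters, and leaving out each array.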

Additional observations from a re-analysis of the deposited data

How the results depend on the processing

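No change from MMN turned its direction, and the rises on CMC kept an adjusted p under 0.01 from limma under all alternatives that gave one, with 2.05e-05 for GH9 and 2.11e-05 for GH61 as the highest. Against MMN averaged over both slides for each culture, the change of GH9 was 0.83 on FH, 1.03 on MH, which is past 2-fold, and 1.18 on MC. This control leaves the difference between slides in the changes. The change of GH9 on CMC minus that on MH was 0.04 as reported, -0.14 against the averaged MMN and -0.043 to 0.10 without 1 array at a time, negative without CMC replicate 2; the differences between media were added after seeing the data, and no other of the 10 turned its sign. With a random block for the MMN cultures, also added then, the difference of GH9 between slides stayed at -0.19 and passed the threshold. Read as natural logarithms, the changes of GH9 were 1.06, 1.35 and 1.83 on FH, MH and MC, those of GH61 0.86, 1.75 and 0.30, and those on CMC 1.41 for GH9 and 1.15 for GH61. Under that reading 504 isotigs were called higher on CMC, against 203 as reported, and as log2 without a fold threshold 2320 were. A repeated quantile normalization put the difference of GH9 and GH61 on MH at -0.14, against -0.28, and the change of GH9 at 1.03 on CMC and 1.01 on MH, both past 2-fold; the cause was not tested. Without 1 array at a time, the change of GH9 ran from 0.70 to 0.81 on FH, 0.90 to 0.96 on MH, 1.25 to 1.31 on MC and 0.89 to 1.04 on CMC, and that of GH61 from 0.53 to 0.64, 1.17 to 1.26, 0.17 to 0.25 and 0.75 to 0.84. The replicate numbers of media and MMN pair no samples by the labels, and only the MH arrays each correlated best with the MMN array of their number. With the number as a replicate block the changes on CMC were 0.98 for GH9 and 0.80 for GH61, with 203 isotigs called, and no call changed. GH9 is among the 25% of isotigs with the lowest mean, so the filter on dim isotigs gave it no value. Of the 5 isotigs closest to each member, 2 were shared with the list under the averaged MMN. Leaving out MC replicate 3, chosen after seeing the data, left both changes on CMC at 0.98 and 0.80.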
